A study of Rattus norvegicus with 6 samples.

Results

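The rows examined are those that the deposited array table places on the mitochondrial chromosome of the rat. Each row summarises the probes of a transcript or region. The rows were chosen by their chromosome, type (main) and accession columns, which gave 10 of the 20258 such rows in the table. All 10 carry the name of a protein-coding gene, ND1 to ND6, COX1 to COX3 and CYTB. The chromosome has 20 further rows of type main without accession or name. They are described beside the named rows by position, length and strand, since the files assign them neither to ribosomal RNA nor to transfer RNA genes. No measured value entered that choice, but it was made with results of the same comparison known. Counts over these rows are therefore descriptions, and the fit is quoted row by row.

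The 6 arrays held RNA from pools of sorted cells, labelled as neuroepithelial progenitor cells, of rat embryos at stage E10.5. The dams of 3 pools had received all-trans retinoic acid, the active form of vitamin A, by gavage at 60 mg/kg in olive oil. The dams of the 3 control pools had received the oil alone. The controls carry ERCC ExFold spike-in mix 1 and the retinoic acid pools mix 2, so the mix cannot be told apart from the treatment. The sources used here do not give the rat strain, the sorting gate, the time from dosing to collection or the number of embryos in a pool. P-values reflect the spread between the pools alone, which may be partly technical.

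Mitochondrial DNA is a small circular genome inside the mitochondrion. It encodes core subunits of the respiratory chain and the ribosomal and transfer RNAs that translate them, while all other subunits come from nuclear genes. In mammals both strands are transcribed as long precursors, from which messenger and ribosomal RNAs are released mostly at the transfer RNAs that lie between them. ND6 is the only protein gene on the strand opposite to the others, and it is read together with a minority of the transfer RNA genes.

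Of the 10 named rows, 9 were called higher after retinoic acid in limma (adjusted p under 0.05 over the 20258 rows) and none was called lower. Across all tested rows 7.69% were called higher and 2.06% lower. The log2 difference of the 10 rows had a median of 0.45 and ran from 0.21 to 0.53, or 1.15-fold to 1.44-fold, where the median of all tested rows was 0.03. The groups did not overlap in any of the 10, as in 19.0% of all tested rows with retinoic acid higher. Values are log2 levels normalized by the authors. Probes differ between rows, so levels of different rows are not amounts of RNA that can be set against each other.

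**Figure D1:**
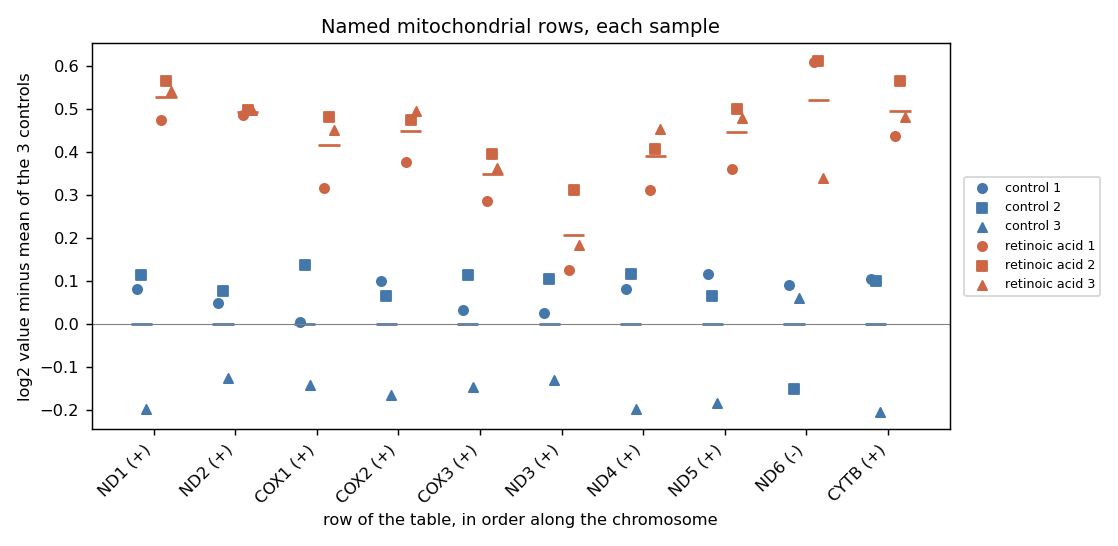
Each of the 10 named mitochondrial rows is shown along the x axis with its strand, and the y axis gives the log2 value of each pool minus the mean of the 3 controls. Points are pools, coloured by group and shaped by number, and short lines are group means. The retinoic acid pools lie above all controls in each row, with the smallest gap in ND3, and control 3 is the lowest control in all rows but ND6.

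The named rows of complex I, the NADH dehydrogenase that passes electrons from NADH into the chain, comprised ND1, ND2, ND3, ND4, ND5 and ND6. ND1, a membrane subunit at the site where quinone binds (mitochondrial chromosome, 2740 to 3763, + strand, in the coordinates of the file, of unstated build), read 12.74, 12.77 and 12.46 in controls 1 to 3 and 13.13, 13.23 and 13.20 in the retinoic acid pools. The lowest retinoic acid pool stood 0.36 above the highest control. It rose by 0.53 ± 0.081 (SE), or 1.44-fold, the largest difference of the named rows (adjusted p = 0.000475).

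ND2 (3904 to 5008, + strand), a proton-pumping membrane subunit, read 12.63, 12.65 and 12.45 in controls and 13.06, 13.08 and 13.08 in retinoic acid. The retinoic acid pools were almost level with each other, with an SD of 0.0071 (n = 3) against 0.11 in controls. It rose by 0.49 ± 0.071 (SE, adjusted p = 0.000286).

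ND4 and ND5 encode the large antiporter-like subunits of the membrane arm. ND4 (9870 to 11537, + strand) went from 13.33, 13.36 and 13.05 to 13.56, 13.65 and 13.70, a rise of 0.39 ± 0.083 (SE, adjusted p = 0.00539). ND5 (11736 to 13565, + strand) went from 13.01, 12.96 and 12.71 to 13.25, 13.39 and 13.37, a rise of 0.45 ± 0.081 (SE, adjusted p = 0.00176). In both, control 3 was the lowest pool of its group and retinoic acid 1 the lowest of the other. The file has no row named ND4L, which in mammals overlaps the start of ND4.

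ND3 (9451 to 9798, + strand), a small membrane subunit, was the named row that was not called. It read 12.93, 13.01 and 12.77 in controls and 13.03, 13.21 and 13.09 in retinoic acid, a difference of 0.21 ± 0.077 (SE, adjusted p = 0.11). The groups were 0.021 apart, so retinoic acid 1 nearly met control 2. Within each pool ND3 was also set against the mean of the other 8 named + strand rows, a contrast chosen after its values were seen. That contrast was -0.01 ± 0.044 (SD, n = 3) in controls and -0.25 ± 0.057 (SD, n = 3) in retinoic acid, without overlap and without a test. On this scale ND3 changed less than the mean of its strand.

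ND6 (13543 to 14061, - strand), a membrane subunit of complex I, read 7.46, 7.22 and 7.43 in controls and 7.98, 7.98 and 7.71 in retinoic acid. It rose by 0.52 ± 0.086 (SE), or 1.43-fold (adjusted p = 0.000838). The lowest pools here were control 2 and retinoic acid 3, unlike in the 9 named + strand rows, where control 3 and retinoic acid 1 were lowest throughout. Its row and the ND5 row on the other strand share the positions 13543 to 13565. ND6 minus the mean of the named + strand rows was -5.54 ± 0.24 (SD, n = 3) in controls and -5.44 ± 0.18 (SD, n = 3) in retinoic acid, and the groups overlapped.

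CYTB encodes cytochrome b, the mitochondrial subunit of complex III, which passes electrons to cytochrome c. Its row (14136 to 15278, + strand) read 13.02, 13.01 and 12.71 in controls and 13.35, 13.48 and 13.39 in retinoic acid. It rose by 0.50 ± 0.083 (SE), or 1.41-fold (adjusted p = 0.000951).

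COX1, COX2 and COX3 encode the core of complex IV, cytochrome c oxidase, which reduces oxygen to water. COX1, the catalytic subunit that holds the haem and copper centre (5323 to 6867, + strand), read 13.38, 13.51 and 13.23 in controls and 13.69, 13.86 and 13.83 in retinoic acid. It rose by 0.42 ± 0.079 (SE, adjusted p = 0.00250). COX2, which takes electrons from cytochrome c (7006 to 7689, + strand), went from 12.24, 12.20 and 11.97 to 12.52, 12.62 and 12.63, a rise of 0.45 ± 0.078 (SE, adjusted p = 0.00121). COX3 (7758 to 9382, + strand), a core subunit without metal centres, went from 13.53, 13.61 and 13.35 to 13.78, 13.89 and 13.86, a rise of 0.35 ± 0.076 (SE, adjusted p = 0.00675). At 1625 bases the COX3 row fills the stretch up to the short row before it, at 7693 to 7756. In mammals the ATP8 and ATP6 genes lie just upstream of COX3. The file has no row under those names, so complex V has no named mitochondrial row.

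The differences of the 9 named + strand rows have to be read against their level. Over the array the median difference between the groups was larger in each higher bin of level from 6 upward. Among tested rows other than the named mitochondrial ones, the median log2 difference was 0.03 for the 5666 rows at level 4 to 6, 0.00 for the 5317 rows at 6 to 7 and 0.02 for the 3330 rows at 7 to 8. It was 0.17 for the 877 rows at 10 to 11 and 0.31 for the 113 rows at 12 to 13. Of the 133 other rows at level 12 or more, 69.2% were called higher and 82.0% had groups that did not overlap with retinoic acid higher. All 9 named + strand rows lie at level 12 or more, and 8 of the 9 were called. Their median difference was 0.45 against 0.31 for those 133 rows, whose own differences ran from -0.085 to 0.59.

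**Figure D2:**
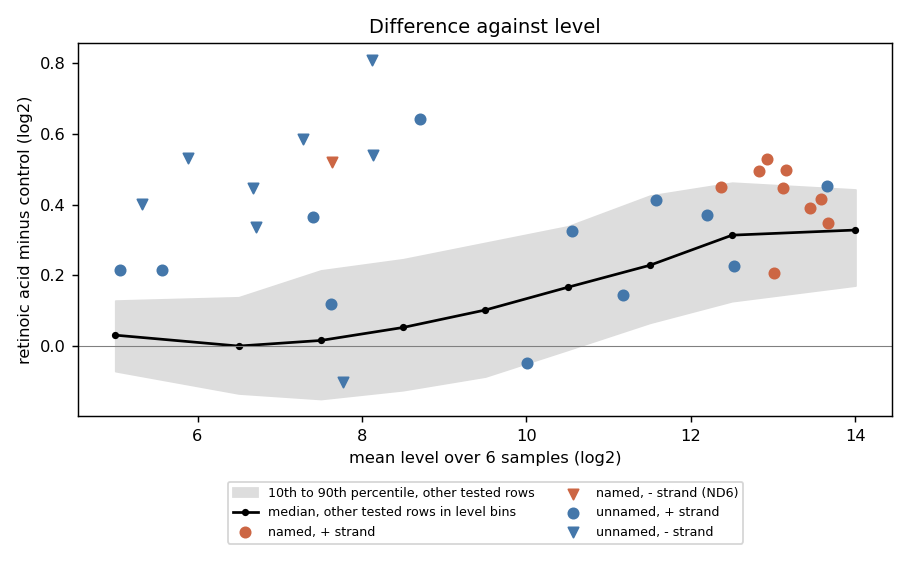
The x axis gives the mean log2 level of a row over the 6 pools, and the y axis the log2 difference of retinoic acid minus control. The black line and grey band are the median and the 10th to 90th percentiles of the other tested rows in bins of level, and the points are the 30 mitochondrial rows. The named + strand rows other than ND3 lie above the median line at the bright end. The median of the other rows is 0.31 at level 12 to 13. COX1, COX2, COX3, ND3 and ND4 lie within the grey band, whose upper edge is 0.46 at level 12 to 13 and 0.44 at 13 to 15. ND5 (0.45) lies near that edge, and ND1, ND2 and CYTB lie above the band. ND6 and most unnamed - strand rows lie above the median line at lower levels.

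The bright rows shared an order of pools with the mitochondrial ones. As deviations from the control means, the median named + strand row stood at 0.08, 0.11 and -0.16 in controls 1 to 3 and at 0.36, 0.48 and 0.48 in retinoic acid 1 to 3. The median of the 133 other bright rows stood at -0.01, 0.07 and -0.06 in controls and at 0.22, 0.38 and 0.34 in retinoic acid. Control 3 was thus lowest and retinoic acid 1 the lowest of its group in both. Over the whole array control 3 also had the smallest spread of values (SD over rows 1.54) and retinoic acid 2 the largest (1.67). Whether the difference at high levels comes from the RNA or from the measurement was not tested.

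A pair of scalings that even out such differences by level gave other results for the + strand. After quantile normalization the median difference of the 10 named rows was 0.13, and after cyclic loess normalization it was also 0.13. Under each of them 1 of the 10 was called, ND6, where 4.06% and 4.24% of all tested rows were called higher. The 9 + strand rows then ran from -0.090 to 0.22 after quantile normalization, with ND3 below 0, and from -0.13 to 0.20 after cyclic loess, with ND3 and COX3 below 0. ND1 was the nearest to a call in that group (adjusted p = 0.0593 and 0.0805). ND6 was at 0.49 and 0.50. Median centring of the pools left all 9 calls in place. A shift of the pools by spike-in rows of nominal ratio 1, chosen after seeing the data, gave a named median of 0.55 but left no mitochondrial call, with 3 of the 20258 tested rows (0.0148%) called higher. The named differences then ran from 0.31 to 0.63.

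**Figure D3:**
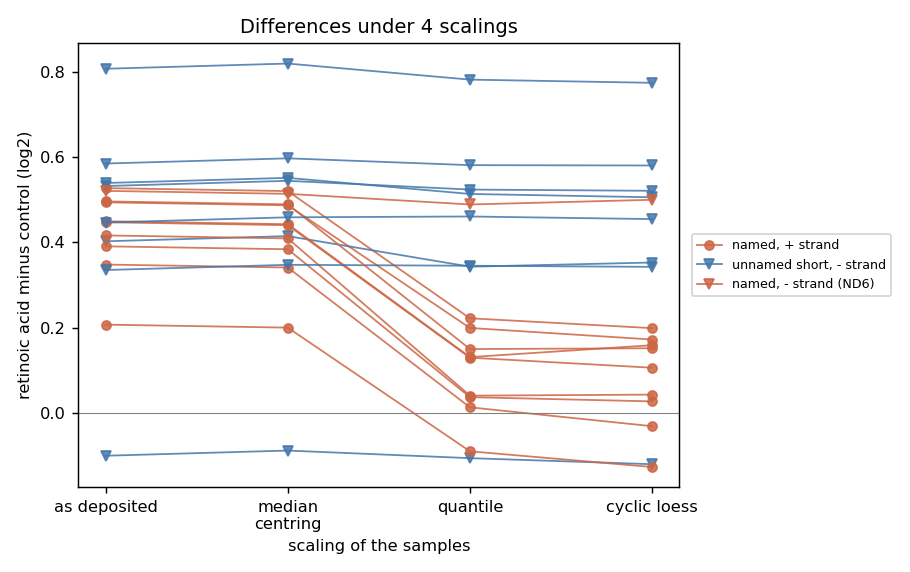
The y axis gives the log2 difference of retinoic acid minus control for the 10 named rows and the 8 unnamed - strand rows, and the x axis the scaling of the pools. Each line is a row, with named rows scaled over the tested rows and unnamed rows over the whole table. The named + strand rows drop from 0.21 to 0.53 as deposited to -0.13 to 0.20 after cyclic loess, while ND6 stays near 0.50 and the - strand rows change little.

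The 20 rows without a name were fitted over the whole table of 29656 rows, of which 5.05% were called higher and 2.78% lower. Of the 20, 10 were called higher and none lower, with a median difference of 0.37. They fall by length into 2 long rows, 17 short rows of 64 to 75 bases and a row of 130 bases. Of the short rows 9 lie on the + strand and 8 on the - strand. They are spread along the chromosome, 3 of them before ND1 and 2 after CYTB.

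The long unnamed rows precede ND1. The row at 68 to 1025 read 13.51, 13.54 and 13.22 in controls and 13.79, 13.90 and 13.94 in retinoic acid, and it rose by 0.45 ± 0.088 (SE, adjusted p = 0.0057). The row at 1094 to 2664 read 12.15, 12.08 and 11.82 in controls and 12.33, 12.38 and 12.45 in retinoic acid, and it rose by 0.37 ± 0.086 (SE, adjusted p = 0.017). In both rows the groups did not overlap, and control 3 was again the lowest. Both lie at level 12 or more. Of the 133 other tested rows at that level, 69.2% were called higher. In 82.0% of them the groups did not overlap, with retinoic acid higher. The call of the second row was lost without control 3 (adjusted p = 0.0644) or without retinoic acid 3. After cyclic loess neither was called, and their median difference was 0.086. After quantile normalization it was 0.23, with 1 call.

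Of the 8 short - strand rows 6 were called higher, and in the same 6 the groups did not overlap, as in 16.7% of the whole table. The largest difference of the chromosome was in the row at 5081 to 5152, between ND2 and COX1. It read 7.86, 7.32 and 7.96 in controls and 8.77, 8.34 and 8.45 in retinoic acid, a rise of 0.81 ± 0.15 (SE), or 1.75-fold (adjusted p = 0.00332). Control 2 was the lowest pool, and retinoic acid 1 stood above the rest.

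Its 3 neighbours on the strand lie in the same stretch before COX1. The row at 5010 to 5078 read 5.77, 5.42 and 5.65 in controls and 6.22, 5.98 and 6.23 in retinoic acid, a rise of 0.53 (adjusted p = 0.00328). The row at 5256 to 5321 read 7.89, 7.65 and 8.03 in controls and 8.62, 8.21 and 8.36 in retinoic acid, a rise of 0.54 (adjusted p = 0.00793). Between them the row at 5185 to 5252 rose by 0.40 (adjusted p = 0.0234). Its highest control, at 5.29, came within 0.041 of its lowest retinoic acid pool, while the groups of the other 3 rows of this stretch were 0.18 to 0.38 apart.

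The row at 6865 to 6933, after COX1, read 7.20, 6.71 and 7.06 in controls and 7.86, 7.57 and 7.29 in retinoic acid. It rose by 0.59 (adjusted p = 0.0176), with retinoic acid 3 only 0.088 above control 1. The row at 15348 to 15415, the last of the chromosome, read 6.50, 6.31 and 6.53 in controls and 7.11, 6.77 and 6.81 in retinoic acid. It rose by 0.45 (adjusted p = 0.00956).

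The remaining - strand rows were not called. The row at 14062 to 14130, next to ND6, was at 0.34 (adjusted p = 0.093) with overlapping groups. It was called without control 1 (0.49, adjusted p = 0.004) and when rows below the array's median level were left out (adjusted p = 0.0477). The row at 3761 to 3831 read 7.88, 7.72 and 7.85 in controls and 8.16, 7.20 and 7.78 in retinoic acid. Its difference was -0.10 ± 0.17 (SE, adjusted p = 0.82), and retinoic acid 2 was below every control. Without that pool the difference was 0.16.

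Single pools decided some of these calls. The calls at 5185 to 5252, 6865 to 6933 and 15348 to 15415 were lost without 4, 3 and 1 of the pools in turn (at most adjusted p = 0.111, 0.0872 and 0.0545, each without control 2). Control 2 was the lowest control in all 9 - strand rows, ND6 included, and in 3 of the 21 + strand rows. Control 3 was lowest in the other 18 + strand rows. Those 3 rows are among the 4 + strand rows with a mean level below 8.13, the highest of the - strand, so the order of the controls moved with level as well as with strand.

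**Figure D4:**
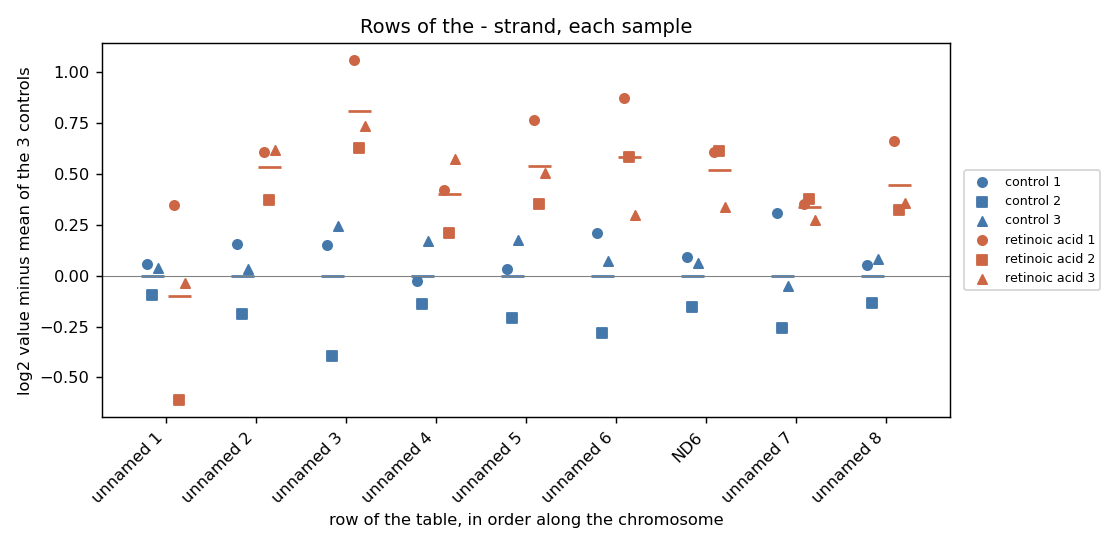
The 9 rows of the - strand are shown in chromosome order along the x axis, and the y axis gives the log2 value of each pool minus the mean of the 3 controls. Points are pools, coloured by group and shaped by number, and short lines are group means. In 7 of the 9 rows, ND6 among them, the retinoic acid pools lie above all controls, and control 2 is the lowest control in all 9.

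By strand, 7 of 9 - strand rows and 12 of 21 + strand rows were called higher as deposited. The counts were 7 of 9 and 2 of 21 after quantile normalization, and 7 of 9 and 1 of 21 after cyclic loess. Named rows were scaled over the tested rows and unnamed rows over the whole table, so these counts join rows scaled apart. The - strand rows lie between 5.32 and 8.13 in mean level, 2 of them at level 4 to 6, 2 at 6 to 7, 3 at 7 to 8 and 2 at 8 to 9. Of the other tested rows in these bins 0.635%, 2.78%, 8.05% and 10.6% were called higher, with median differences of 0.03, 0.00, 0.02 and 0.05. These shares come from the fit over the tested rows, while the unnamed - strand rows were called in the fit over the whole table. They are not shares of short unnamed rows of like level. A test of the difference between the strands was not made, since rows of a precursor are not replicates. Probes that also match nuclear copies of mitochondrial sequence, or the opposite strand, would add signal to a row, and this was not tested.

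Of the 9 short + strand rows 2 were called higher, and their median difference was 0.23. The row at 2665 to 2739, just before ND1, read 8.76, 8.37 and 8.02 in controls and 9.02, 9.05 and 8.996 in retinoic acid, a rise of 0.64 ± 0.13 (SE, adjusted p = 0.00895). It was still called after quantile normalization and cyclic loess (0.59 and 0.58). The row at 1026 to 1093, between the long rows, rose by 0.41 (adjusted p = 0.017), a call lost without 4 of the pools in turn (at most adjusted p = 0.0725, without retinoic acid 2).

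The other 7 short + strand rows, at 1 to 67, 6937 to 7004, 7693 to 7756, 9383 to 9450, 9800 to 9867, 11538 to 11605 and 15280 to 15346, had differences of 0.12 to 0.37 and were not called. Without control 1 a pair of them were called higher, the row at 9383 to 9450 at 0.52 (adjusted p = 0.00319) and the row at 9800 to 9867 at 0.58 (adjusted p = 0.000574). The former was also called when dimmer rows were left out of the fit (adjusted p = 0.038). The first of them read 8.04, 7.18 and 7.47 in controls and 7.50, 7.76 and 7.80 in retinoic acid, so control 1 stood above all the others. The row at 11538 to 11605 read 11.40, 11.07 and 10.82 in controls and 11.34, 11.21 and 11.17 in retinoic acid, again with control 1 highest. Control 1 was the highest control in 8 of the 9 short + strand rows, against 3 of the 9 named + strand rows. The row of 130 bases at 11606 to 11735, between ND4 and ND5, was at -0.05 ± 0.10 (SE, adjusted p = 0.86). It and the row at 3761 to 3831 were the only 2 of the 30 with a difference below 0 on the deposited scale.

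**Figure D5:**
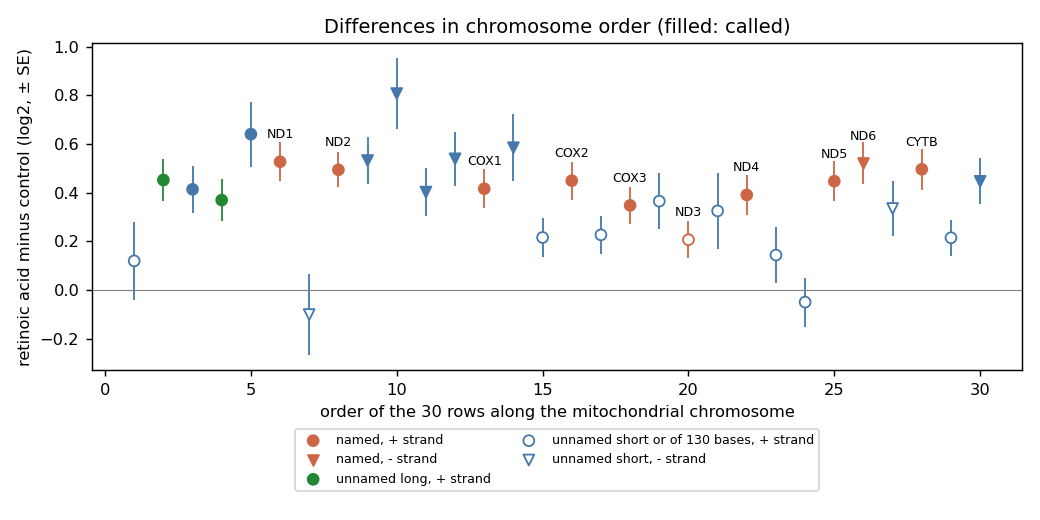
The 30 mitochondrial rows are placed in order along the chromosome on the x axis, and the y axis gives the log2 difference of retinoic acid minus control with its SE. Circles are + strand and triangles - strand rows, named rows carry their symbols, and filled symbols were called (adjusted p under 0.05). The largest difference, 0.81, is in a - strand row between ND2 and COX1, and 28 of the 30 differences are above 0.

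Nuclear genes that maintain, transcribe and process the mitochondrial genome were counted in lists, beside 7.69% of all tested rows called higher. Of 20 genes of mitochondrial DNA transcription and maintenance 2 were called higher and none lower, with a median difference of 0.04. Ssbp1, the single-stranded DNA-binding protein of mitochondria, rose by 0.28 (adjusted p = 0.024), and Tfam, which packages the genome and starts its transcription, by 0.24 (adjusted p = 0.047). When any pool was left out, at most 1 gene of this list was called. After median centring, quantile normalization or cyclic loess none was called higher. The list had a median level of 7.72, and of the tested rows at level 7 to 8, 8.05% were called higher. Polrmt, the mitochondrial RNA polymerase, was at 0.05 and Ppargc1a, a coactivator of mitochondrial biogenesis, at 0.17, and neither was called.

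Of 32 genes of mitochondrial RNA processing and decay 4 rose and none fell, with a median difference of 0.09. They were Trnt1, which adds CCA to transfer RNAs (0.36), Tbrg4, a FASTK family RNA-binding protein (0.32), Mtpap, the mitochondrial poly(A) polymerase (0.27), and the row that the file names Fastkd5-ps1 (0.25). The count was 1 without control 2 or control 3 and 2 without retinoic acid 2 or retinoic acid 3. The 4 genes are 12.5% of this list, which had a median level of 8.26. Of the tested rows at level 8 to 9, 10.6% were called higher, with a median of 0.05. Of 16 measured mitochondrial aminoacyl-tRNA synthetases, which charge the transfer RNAs, Mars2 rose (0.34, adjusted p = 0.0047) and none fell, with a list median of -0.0041. The synthetase list had a median level of 7.74. At level 7 to 8 the share called higher was 8.05% and the median 0.02.

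Of 66 measured nuclear subunits of the complexes, 19 (28.8%) were called higher and none lower. Their median difference was 0.16 at a median level of 9.37, while of the tested rows at level 9 to 10, some of these subunits included, 16.7% were called higher with a median of 0.10. In complex I 8 of 35 rose, led by Ndufb3 (0.61), Ndufc2 (0.41), Ndufb6 (0.43) and Ndufb8 (0.38), all accessory subunits. In complex III 4 of 8 rose, with Uqcr11 (0.37) and the haem protein Cyc1 (0.28) among them. In complex IV 4 of 10 rose, including Cox5b (0.51) and Cox4i1 (0.32), and in complex V 3 of 13, Atp5j2 (0.46), Atp5g1 (0.37) and Atp5g3 (0.25). The complex III and IV lists had median levels of 10.17 and 10.48 and median differences of 0.18 and 0.19. Of the tested rows at level 10 to 11, 29.1% were called higher, with a median of 0.17. The complex V list had a median level of 8.79 and a median difference of 0.16. At level 8 to 9 the share was 10.6% and the median 0.05. Single pools moved the counts of the complexes. In complex I 5 were called without control 2. In complex III the count was 1 without retinoic acid 2, and 2 without control 1 or retinoic acid 1. In complex IV it was 2 without control 2, control 3, retinoic acid 2 or retinoic acid 3. In complex V 5 were called when only rows above the median level were tested. After quantile normalization or cyclic loess, 8 of the 134 genes of the 7 nuclear lists were called higher and 2 lower, where the deposited scale gave 26 and 0. Of all 20258 tested rows, 4.06% and 4.24% were called higher under these scalings, and 785 and 767 rows lower.

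Markers of several cell types, neural progenitors among them, moved with the treatment in the same pools. An array of a pool cannot tell a change in the number of cells from one in RNA per cell. Rose and fell here mean called higher and called lower, beside 7.69% and 2.06% of all tested rows. All 7 measured heart muscle markers rose, and their mean level went from 6.63 to 6.68 in controls to 7.45 to 7.57 in retinoic acid. Heart muscle is rich in mitochondria. Of 5 blood markers 3 rose (means 8.31 to 8.47 and 8.57 to 8.65), while Klf1 (0.11) and Gata1 (-0.03) were not called. Of 6 endothelial markers 5 fell (8.59 to 8.71 and 8.05 to 8.17). Of 8 mesoderm and mesenchyme markers 4 fell and 1 rose (8.32 to 8.41 and 8.15 to 8.22). Of 6 measured neural progenitor markers 3 rose, Sox2, Pax6 and Fabp7, with means of 7.84 to 7.88 and 8.07 to 8.18. Their part in the mitochondrial differences was not tested.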

How the data were processed

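The authors deposited 1 table of 29656 rows with log2 expression values normalized between samples, and a value table that was identical to it in all 6 columns. Log2 was read from the range of values, 4.77 to 14.35, and from the deposited log2 fold change. Per the file headers, the authors also gave scores (t and B) and p-values. The submitters' processing notes name limma. The sources used here do not give the array design, summarisation, normalization or genome build. Columns named WT were matched by number to the control titles. Of the rows 167 are array controls and 9231 have no accession.

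Retinoic acid minus control was fitted with limma 3.58.1 in R 4.3.3 (lmFit, eBayes, no block, two-sided) over the 20258 rows of type main with an accession, with Benjamini-Hochberg adjustment. This differed for the 20 unnamed mitochondrial rows, which have no accession and were fitted over the whole table. Median centring, quantile normalization and cyclic loess were likewise run on the tested rows for named rows and on the whole table for unnamed ones. The fit was tested on simulated data. Members, gene lists and settings were chosen with earlier results of these data known. The naming rule gave per-sample values for called and long rows, and up to 4 called genes per list. Some named genes, such as Polrmt and Ppargc1a, and the level bins were chosen after values were seen. Lists took the row of highest mean per gene, matched by symbol or by Entrez identifier (RefSeq, GRCr8). Alternatives were a replicate block, trend and robust moderation, median centring, quantile and cyclic loess normalization, a level filter, the whole table, array weights, the authors' statistics, each pool left out, and a spike-in shift. Figures used matplotlib 3.10.9 in Python 3.11.15. Arrays carry no read depth, and their number limits the precision.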

Additional observations from a re-analysis of the deposited data

How the results depend on the processing

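The same 9 named rows were called without any pool in turn, with array weights, after median centring, with trend and robust moderation, over the whole table and in the authors' deposited table. With the replicate block the count was also 9, with 1876 rows higher and 540 lower over the array. Deviations of pools with the same number correlated at -0.11, 0.24 and 0.24. Those of pools with different numbers correlated at -0.37 to 0.20, so pairing by number was not settled. The block changed no call of a mitochondrial row. Above the median level ND3 was called too. Quantile normalization and cyclic loess moved the tested rows to 823 and 859 higher and 785 and 767 lower (51.2% and 52.8% of calls higher against 78.9%). The named rows then had 1 call each and medians of 0.13 and 0.13, the long rows 1 and 0 calls at 0.23 and 0.086, and the short + strand rows 1 call each. Nuclear list genes were 8 higher and 2 lower under both. List genes called lower were 1 above the median level and 1 with array weights. Negative values appeared after quantile normalization in ND3 (-0.090) and the row at 11538 (-0.041), and after cyclic loess in ND3 (-0.13), COX3 (-0.031) and the rows at 7693 (-0.071) and 11538 (-0.066).

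A shift by 10 spike-in rows of nominal ratio 1 (from general knowledge of the product), chosen after seeing the data, left 3 rows higher and 1 lower over the array, and 0 calls among named, long and short mitochondrial rows and 0 list genes higher. It raised the median of all tested rows from 0.03 to 0.13. The named median was 0.55, and 1 control differed from the others by most (shifts of 0.24, 0.45 and -0.54 in controls 1 to 3). The rows at 3761 and 11606 turned to 0.0014 and 0.053. The row at 1 turned to -0.034 with array weights. Without single pools it ran from -0.070 to 0.36, the row at 11606 from -0.14 to 0.057 and the row at 3761 from -0.32 to 0.16. The cause of these changes was not tested.

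Without each pool, tested rows called ran from 949 to 1261 higher and from 254 to 352 lower. The named median ran from 0.36 to 0.50, the long median from 0.31 to 0.47 with 1 to 2 calls, the short + strand median from 0.17 to 0.36 with 1 to 4 calls, and the short - strand median from 0.41 to 0.55 with 3 to 6 calls. List genes ran from 14 to 24 higher and 0 to 1 lower.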
